A study of Mus musculus with 36 samples.

Results

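The genes that take up, store, export and oxidise lipid were followed in transferred mouse cells. Yolk sac macrophages, fetal liver monocytes and bone marrow monocytes became alveolar macrophages, which are phagocytes resident in the airways' terminal sacs. Adult alveolar macrophages were transferred as well. The set held 37 named genes: 8 for uptake and activation of fatty acids, 13 for storage and mobilisation, 6 for efflux and transfer, and 10 for mitochondrial β-oxidation. The set was given as a list of gene names, chosen with earlier results of these data known. Shares of all genes are therefore printed beside its counts as a description and not as a test of the set. Each gene was read from the probe set that the array's annotation pairs with that gene alone, and where several exist from the one with the highest mean. In this way 34 of the 37 genes were measured, among 19938 genes on the array, and all 34 were bright enough to be tested beside 12244 genes in all. For Acsl1 and Soat1 the annotation used here lists no such probe set, and the only probe set of Acsl3 is shared with another gene, so these 3 have no value.

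RNA was measured on 36 arrays, 4 per group in 9 groups, and all measured cells came from, or descended from cells of, wild-type C57BL/6 mice. Donors were CD45.1+CD45.2+, carrying both alleles of a blood-cell surface marker, and the 6-week control mice are given as CD45.1+CD45.2. The 4 transferred groups had been sorted by flow cytometry from lung lavage 6 weeks after cells were given through the nose to newborn Csf2rb-/- mice, which lack the signalling β chain through which GM-CSF, a growth factor, acts. They descended from yolk sac macrophages (YS-derived), fetal liver monocytes (FL-derived), adult bone marrow monocytes (BM-derived) or adult alveolar macrophages (AM-derived). The 2 native groups were alveolar macrophages lavaged from untransplanted wild-type mice, one aged 6 to 12 weeks (adult AM, also the donors of the AM-derived cells) and one aged 6 weeks (6-week AM, of the age of the recipients). The 3 remaining groups were the precursors themselves: yolk sac macrophages of embryonic stage E12.5, fetal liver monocytes of stage E15.5 and bone marrow monocytes of mice aged 6 to 12 weeks. Every transferred group had lived in a Csf2rb-/- host and no native group had, so transfer and host genotype cannot be told apart in these data. The 4 samples of each group are labelled as biological replicates, and whether animals were pooled for a sample is not given in the sources used here.

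Alveolar macrophages clear surfactant, the lipid film that lines the alveoli, and are known for a high capacity to take up and process phospholipid, fatty acid and cholesterol. Fatty acids enter through scavenger receptors and transport proteins, are joined to coenzyme A, and are then either esterified into lipid droplets or carried into mitochondria as carnitine esters and shortened by the enzymes of β-oxidation. Cholesterol leaves macrophages through ABC transporters of the plasma membrane. GM-CSF signalling and the nuclear receptor Pparg are known to be required for the maturation of these cells, and mice without GM-CSF signalling accumulate surfactant lipid in the alveoli.

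Sequences around transcript starts were examined first, since Pparg with its partner Rxra binds a repeat of the half-site AGGTCA with 1 base between the copies, termed DR1, and the oxysterol receptor Nr1h3 binds a repeat with 4 bases between them, termed DR4. Windows of 300 bases, from 250 before to 50 after an annotated transcript start, were taken from RefSeq (assembly GRCm38.p6) and matched 33 of the 37 genes by symbol. Some members have several windows, so that the 33 had 41. Lpl, Abcg1, Dgat1 and Dgat2 had no window under their symbols and were therefore not searched. A DR1 (AGGTCA, any base, AGGTCA), on either strand and with up to 2 mismatches in its fixed bases, was found in 3.86% of 32851 windows of all genes and in 3 of the 41 member windows, those of Cd36, Plin2 and Slc25a20. A DR4, searched in the same way with 4 free bases, was found in 3.02% of all windows and in 2 of the 41 member windows, those of Acadvl and Acsl3. No member window held both. A match is a likeness of letters and not a binding site shown by these data. The 3 members with a DR1 match are shown because Pparg itself changed with the members described below. Each window runs 5′ to 3′ on the strand of its gene, with the match in capitals. In Cd36 (minus strand, chr5:17835847-17836146) the match began 63 bases before the start used, in Plin2 (minus strand, chr4:86670010-86670309) 225 bases before it, and in Slc25a20 (plus strand, chr9:108661886-108662185) at base 7 after it. The start used for Cd36 is an internal one, since the annotated gene spans chr5:17781690-17888959 and the window lies within it, and that of Plin2 also lies inside the annotated gene (chr4:86626910-86670217). The fourth window shows Hadhb (plus strand, chr5:30155003-30155302), whose start lies 273 bases from that of Hadha on the opposite strand; its capitals mark the 228 bases that also belong to the promoter window of Hadha. It is shown because these neighbours encode the α and β subunits of a single enzyme and rose together in every comparison with a precursor.
Cd36: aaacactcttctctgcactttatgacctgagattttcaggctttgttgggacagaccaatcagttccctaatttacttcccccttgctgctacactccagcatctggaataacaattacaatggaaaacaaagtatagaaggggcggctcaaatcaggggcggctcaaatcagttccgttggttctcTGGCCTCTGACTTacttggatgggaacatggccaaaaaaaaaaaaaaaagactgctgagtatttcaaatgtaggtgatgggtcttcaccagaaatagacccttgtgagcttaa
Plin2: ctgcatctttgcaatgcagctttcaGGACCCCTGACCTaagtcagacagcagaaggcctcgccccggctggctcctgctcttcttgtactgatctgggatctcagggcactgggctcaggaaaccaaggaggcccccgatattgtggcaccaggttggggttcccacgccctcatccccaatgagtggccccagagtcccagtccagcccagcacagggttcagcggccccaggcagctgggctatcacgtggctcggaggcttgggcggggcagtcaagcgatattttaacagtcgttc
Slc25a20: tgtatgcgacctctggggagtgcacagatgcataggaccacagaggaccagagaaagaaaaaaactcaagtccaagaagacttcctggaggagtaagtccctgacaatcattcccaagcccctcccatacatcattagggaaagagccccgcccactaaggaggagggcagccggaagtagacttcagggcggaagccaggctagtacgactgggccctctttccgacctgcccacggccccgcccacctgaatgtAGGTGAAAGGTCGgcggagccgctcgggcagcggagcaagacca
Hadhb: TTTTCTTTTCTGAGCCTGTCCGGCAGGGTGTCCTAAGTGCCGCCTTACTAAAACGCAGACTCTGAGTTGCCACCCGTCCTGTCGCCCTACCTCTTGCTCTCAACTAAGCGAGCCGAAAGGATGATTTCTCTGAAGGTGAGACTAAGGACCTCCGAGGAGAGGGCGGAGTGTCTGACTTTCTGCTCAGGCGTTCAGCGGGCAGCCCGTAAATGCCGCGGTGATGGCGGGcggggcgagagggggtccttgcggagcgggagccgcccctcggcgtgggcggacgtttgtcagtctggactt

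The arrays were even and the labelled cell types carried their markers. Array medians lay between 4.54 and 4.73 on the log2 scale, and each array correlated with the others of its group at a mean r of 0.963 to 0.982 over genes. By group mean, all 7 measured alveolar macrophage markers lay above the median of the whole table (4.623) in all 6 groups of alveolar macrophages. Bone marrow monocytes also exceeded it for 5 of these 7 markers, and fetal liver monocytes and yolk sac macrophages for 4 each. Car4 and Itgax lay below it in every precursor group. All 7 tissue macrophage markers exceeded it in yolk sac macrophages, against at most 5 in any other group. Markers of other cells were not even among the precursors. The 5 measured erythroid markers summed to 1377 to 2918 (linear values) in yolk sac macrophages, where 3 of 5 exceeded the table median with Klf1 and Alas2 below it, against at most 106 in any other sample. The 6 granule genes that mark neutrophils and their progenitors summed to 4803 to 9309 in fetal liver monocytes and 1696 to 9951 in bone marrow monocytes, with 5 and all 6 of them above the table median, against at most 159 elsewhere. The 5 measured lymphocyte markers summed to 94 to 165 in fetal liver and 90 to 419 in bone marrow monocytes, against at most 88 elsewhere. Of these, Nkg7 exceeded the table median in both kinds of monocyte alone, and Cd79a, Ncr1 and Ms4a1 lay below it in every group. Of the 6 endothelial markers Cdh5, Kdr, Tek and Cldn5 lay below the table median in every group, and the list summed to 139 to 177 in yolk sac macrophages, against at most 114 in any other sample. The 6 yolk sac endoderm and hepatocyte markers summed to 814 to 1108 in yolk sac macrophages, where 4 exceeded the table median with Apob and Alb below it. They summed to 367 to 532 in fetal liver monocytes, 499 to 883 in bone marrow monocytes and 1559 to 2867 in the groups of alveolar macrophages. These linear sums mainly follow Trf, whose mean log2 level over all arrays was 10.30. The means of Afp, Apoa1, Ttr, Apob and Alb were 5.56, 4.95, 3.66, 3.73 and 3.69. In yolk sac macrophages over bone marrow monocytes the log2 differences were 1.79 for Afp, 2.16 for Ttr and 0.91 for Apoa1, all endoderm markers, and 1.23 for Egfl7 of endothelium. In YS-derived over yolk sac macrophages Afp, Ttr, Apoa1 and Egfl7 had -1.42, -2.04, -0.91 and -1.28, and all 8 of these differences were called. Of 4 measured adipocyte markers, Adipoq, Lep and Cidea lay below the table median in every group, and Retn exceeded it in fetal liver monocytes alone, and the list summed to 43 to 65 over all samples; fat cells share several of the droplet genes described here. The lung epithelial list summed to 220 to 496 in the groups of alveolar macrophages and 171 to 253 in the precursors. The part of these other cells in the results that follow was not tested, and in sorted bulk samples fewer cells of a type and less RNA per cell cannot be told apart.

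Most of the lipid genes were higher in the transferred macrophages than in the cells they came from, whatever the origin. In YS-derived macrophages over yolk sac macrophages 25 of the 34 measured members rose and 3 fell, where 42.9% of all genes tested changed in either direction. In FL-derived macrophages over fetal liver monocytes 25 rose and 2 fell (38.3% of all genes changed). In BM-derived macrophages over bone marrow monocytes 25 rose and 2 fell (36.4% of all genes changed). A change was called at a Benjamini-Hochberg adjusted p under 0.05 in limma, a linear model fitted over all 36 arrays so that the groups share a single estimate of the spread of each gene. Of all genes 19.6% rose and 23.2% fell for the yolk sac origin, 20.4% rose and 18.0% fell for fetal liver, and 20.3% rose and 16.1% fell for bone marrow. The median log2 difference of the members was 0.91 for the yolk sac origin, 1.01 for fetal liver and 1.19 for bone marrow, while the median over all genes lay within 0.02 of 0 in each. Because the members were chosen with earlier results of these data known, their excess over all genes is a description and not a test. A total of 20 members rose in all 3 comparisons (58.8% of the members measured, against 9.59% of all genes tested). They were Cd36, Lpl and Slc27a1 of uptake; Plin1, Plin2, Plin3, Cidec, Dgat2, Awat1, Chpt1, Mgll and Pnpla2 of storage; Abcg1, Pltp and Ch25h of efflux; and Cpt1a, Cpt2, Acadm, Hadha and Hadhb of β-oxidation. Agpat2 and Lipe fell in all 3, and Abca3 and Slc27a4 were called in none.

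**Figure D1:**
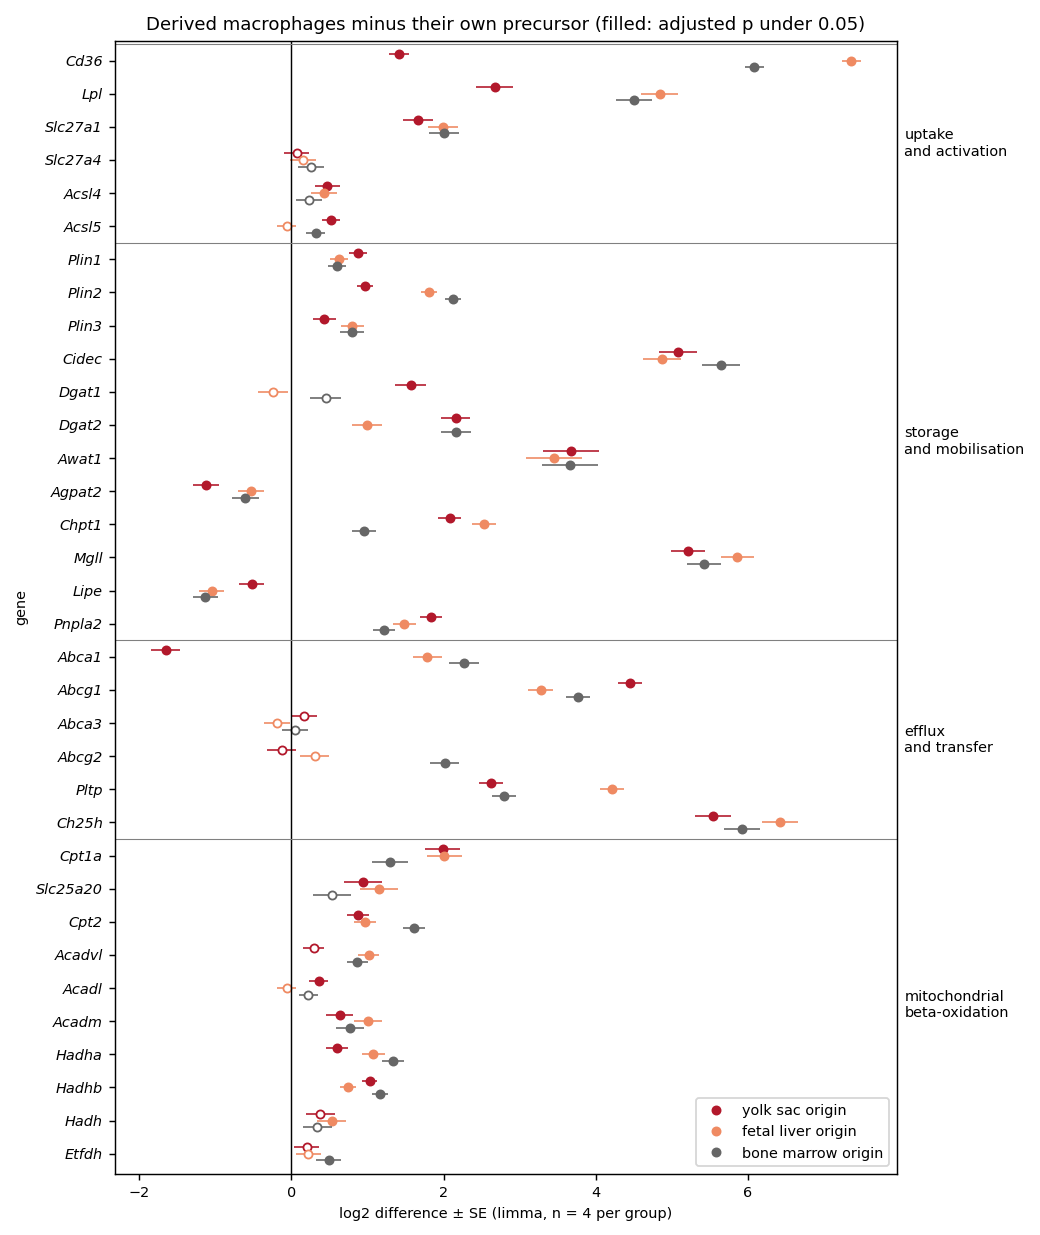
Log2 difference ± SE (limma, 4 samples per group) of each of the 34 measured members between transferred macrophages and their own precursor, for the yolk sac, fetal liver and bone marrow origins, grouped by role; filled points passed an adjusted p under 0.05. Most points lie right of 0; Agpat2 and Lipe lie left of it for all 3 origins, and Abca1 lies at -1.65 for the yolk sac origin and right of 0 for the other 2.

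Among the uptake genes, Cd36 showed the widest change from both kinds of monocyte, and Lpl from yolk sac macrophages. It encodes a scavenger receptor that binds fatty acids and oxidised lipoproteins. Its log2 levels were 10.85, 10.79, 10.93 and 10.66 in YS-derived macrophages and 9.26, 9.55, 9.35 and 9.43 in yolk sac macrophages. FL-derived macrophages had log2 levels of 10.83, 10.83, 10.87 and 10.45, against 3.52, 3.56, 3.42 and 3.02 in fetal liver monocytes. BM-derived macrophages had log2 levels of 10.67, 10.58, 10.24 and 10.32, against 4.62, 4.18, 4.23 and 4.43 in bone marrow monocytes. Every derived sample was thus above every precursor sample, both kinds of monocyte were at or under the table median, and yolk sac macrophages were already bright for this gene before transfer. The log2 difference was 1.41 ± 0.13 (SE) for the yolk sac origin (adjusted p = 3.1e-11), 7.36 ± 0.13 for fetal liver (adjusted p = 1.7e-30) and 6.09 ± 0.13 for bone marrow (adjusted p = 3.6e-28). Where the lower group lies under the table median, folds are given against that median as a lower bound, here at least 69.6-fold from fetal liver and at least 56.8-fold from bone marrow, beside 2.66-fold from yolk sac. The change over transfer was smaller for the yolk sac origin, with a log2 difference between changes of -5.95 ± 0.18 against fetal liver and -4.68 ± 0.18 against bone marrow (interaction terms, adjusted p = 3.2e-23 and 2.1e-20).

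Lpl, the lipase that frees fatty acids from lipoproteins, followed a similar order of precursors. Its log2 levels were 11.22, 11.40, 11.34 and 11.67 in YS-derived macrophages, against 8.44, 8.63, 8.84 and 9.02 in yolk sac macrophages. They were 10.95, 11.03, 11.18 and 11.28 in FL-derived macrophages, against 6.64, 6.08, 6.19 and 6.17 in fetal liver monocytes. They were 11.09, 11.54, 11.48 and 11.38 in BM-derived macrophages, against 6.36, 7.89, 6.82 and 6.39 in bone marrow monocytes. No derived group overlapped its precursor, and replicate 2 of the bone marrow monocytes stood above the other 3. Lpl rose 6.37-fold, 28.6-fold and 22.8-fold from yolk sac, fetal liver and bone marrow (adjusted p = 2.1e-11, 6.5e-18 and 3.8e-17). Slc27a1, a fatty acid transport protein with acyl-CoA synthetase activity, rose 3.16-fold, 3.97-fold and 4.01-fold in the same order. Slc27a4, a relative that is widely expressed, had log2 differences of 0.07, 0.15 and 0.26, none of them past the test, though the bone marrow difference was called without BM-derived replicate 4 (0.44, adjusted p = 0.038).

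The acyl-CoA synthetases Acsl4 and Acsl5, which activate fatty acids inside the cell, moved little. Acsl4 rose with a log2 difference of 0.47 ± 0.17 in YS-derived and 0.43 ± 0.17 in FL-derived macrophages over their precursors, and had 0.23 ± 0.17 in BM-derived macrophages (adjusted p = 0.30). The FL-derived call was lost when fetal liver monocyte replicate 2, 3 or 4 or FL-derived replicate 1 or 4 was left out (adjusted p = 0.068 to 0.13), and the YS-derived call without yolk sac macrophage replicate 3 (adjusted p = 0.064) or YS-derived replicate 1 (adjusted p = 0.11). Acsl5 rose with a log2 difference of 0.52 ± 0.12 in YS-derived macrophages and 0.32 ± 0.12 in BM-derived macrophages, and had -0.06 ± 0.12 in FL-derived macrophages. Its BM-derived call was lost without bone marrow monocyte replicate 1, 3 or 4 or BM-derived replicate 1 or 2 (adjusted p = 0.052 to 0.097). In all, 5 of 6 measured uptake genes rose from yolk sac and 4 of 6 from each kind of monocyte, and none fell.

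**Figure D2:**
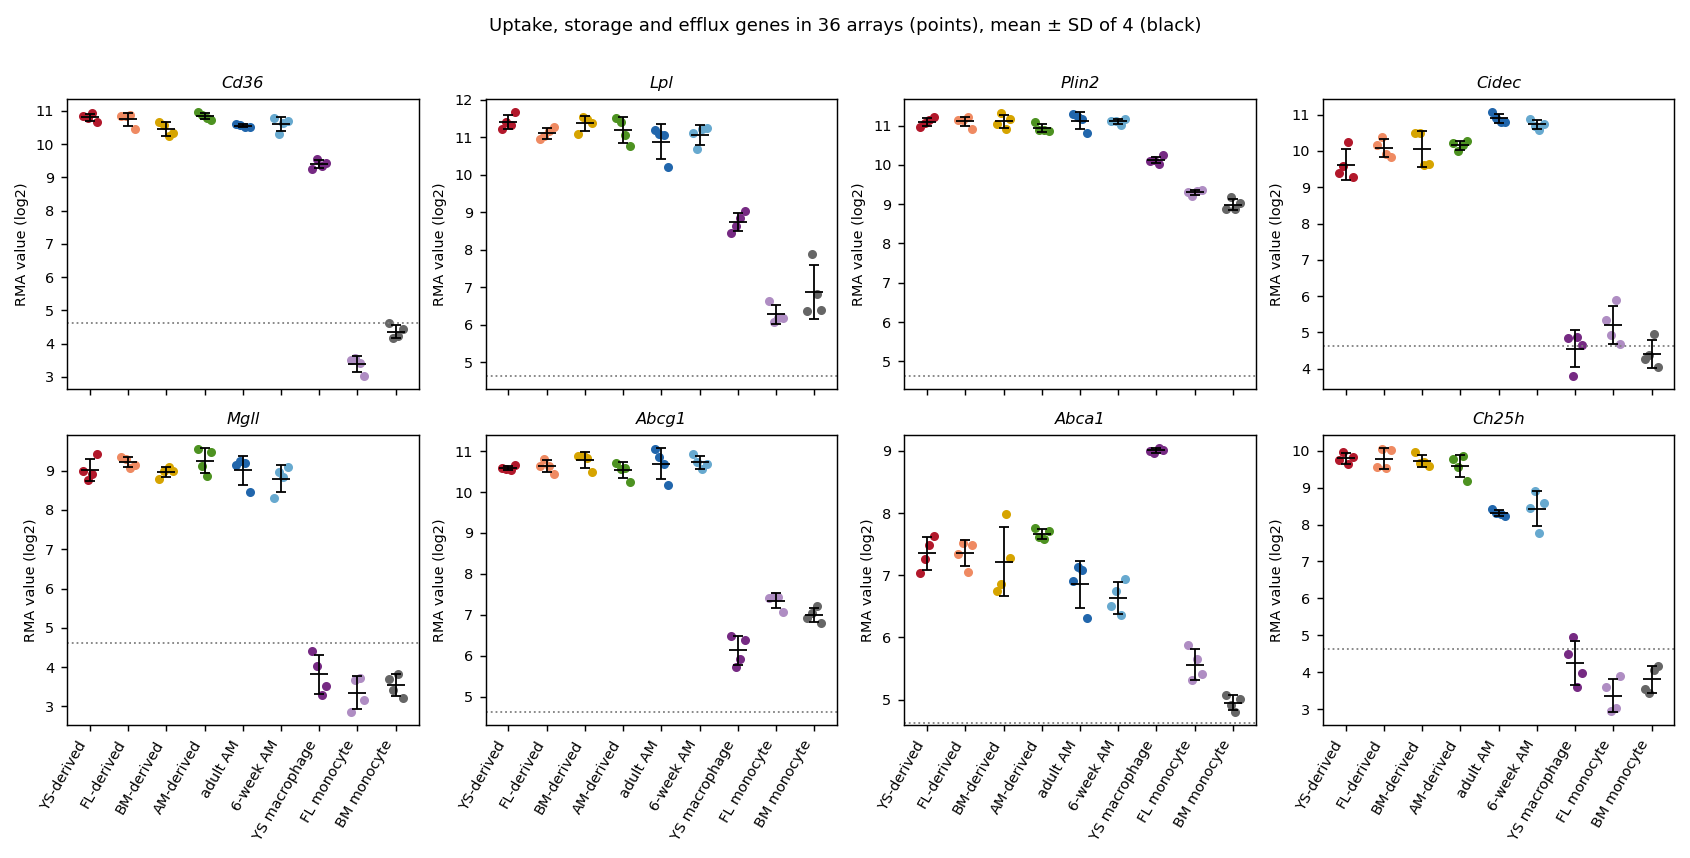
Log2 RMA values of 8 members in the 9 groups; each point is 1 of 4 arrays, black bars give mean ± SD, and the dotted line is the table median of 4.623. Cidec, Mgll and Ch25h sit near or under the median in the 3 precursors, while Cd36 sits at 9.26 to 9.55 in yolk sac macrophages and Abca1 is highest there at 8.96 to 9.04.

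Storage genes included some of the sharpest changes, above all Cidec and Mgll. Cidec, a droplet protein that promotes the fusion of lipid droplets, had log2 levels of 9.38, 9.59, 10.24 and 9.28 in YS-derived macrophages, against 4.86, 3.79, 4.88 and 4.65 in yolk sac macrophages. In FL-derived macrophages it had 10.18, 10.40, 9.92 and 9.83, against log2 levels of 5.35, 4.92, 5.88 and 4.68 in fetal liver monocytes. In BM-derived macrophages it had 10.501, 10.48, 9.61 and 9.64, against log2 levels of 4.26, 4.38, 4.96 and 4.04 in bone marrow monocytes. The lowest derived sample stood far above the highest precursor sample. Cidec thus rose at least 32.0-fold from yolk sac, 29.3-fold from fetal liver and at least 43.3-fold from bone marrow (adjusted p = 3.5e-18, 1.8e-17 and 2.7e-19).

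Mgll, the lipase that releases the last fatty acid from monoacylglycerol, was under the table median in every precursor sample. Its log2 levels were 8.99, 8.77, 8.91 and 9.43 in YS-derived macrophages, against 4.41, 4.03, 3.28 and 3.53 in yolk sac macrophages. FL-derived macrophages had log2 levels of 9.34, 9.29, 9.07 and 9.15, against 2.85, 3.66, 3.73 and 3.15 in fetal liver monocytes. BM-derived macrophages had log2 levels of 8.79, 9.001, 9.10 and 8.99, against 3.70, 3.41, 3.83 and 3.22 in bone marrow monocytes. The rise was at least 21.1-fold, 24.1-fold and 20.3-fold from yolk sac, fetal liver and bone marrow (adjusted p = 8.3e-20, 5.1e-21 and 4.0e-20). The lipase that acts on triacylglycerol at the start of the same pathway, Pnpla2, rose less, by 3.57-fold, 2.80-fold and 2.33-fold. Lipe, the hormone-sensitive lipase that acts between them, moved the other way. Its log2 difference was -0.52 ± 0.17 from yolk sac, -1.05 ± 0.17 from fetal liver and -1.13 ± 0.17 from bone marrow. The first of these calls was lost without yolk sac macrophage replicate 4, the highest sample of its group (adjusted p = 0.067).

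The 3 perilipins among the members, which coat lipid droplets, rose from every precursor. Plin2, the perilipin of most non-fat cells, had log2 levels of 10.96, 11.07, 11.13 and 11.22 in YS-derived macrophages and 10.11, 10.12, 10.03 and 10.24 in yolk sac macrophages. It had log2 levels of 11.14, 11.15, 11.21 and 10.92 in FL-derived macrophages and 9.31, 9.21, 9.32 and 9.35 in fetal liver monocytes. It had log2 levels of 11.04, 11.31, 10.90 and 11.16 in BM-derived macrophages and 8.87, 9.17, 8.87 and 9.02 in bone marrow monocytes. All derived samples lay between 10.90 and 11.31, so that the size of the rise, 1.96-fold, 3.50-fold and 4.35-fold, followed the level of the precursor. Plin3 rose 1.35-fold, 1.74-fold and 1.73-fold in the same order. Its yolk sac call was lost without yolk sac macrophage replicate 3 or YS-derived replicate 2 or 4 (adjusted p = 0.062 to 0.087). Plin1, the perilipin typical of fat cells, rose at least 1.73-fold from yolk sac, 1.54-fold from fetal liver and at least 1.51-fold from bone marrow, and no derived sample exceeded a log2 level of 5.61. Plin4, a perilipin outside the set, had log2 differences of -0.05, -0.02 and -0.07 from yolk sac, fetal liver and bone marrow, none of them called, and Plin5 was too dim to be tested.

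Enzymes that build stored and membrane lipid divided into risers and a faller. Dgat2, which completes triacylglycerol, rose 4.46-fold from yolk sac, 1.99-fold from fetal liver and 4.47-fold from bone marrow. Dgat1, a second and structurally unrelated enzyme of the same step, rose 2.96-fold from yolk sac (adjusted p = 5.8e-08), and had log2 differences of -0.24 ± 0.20 from fetal liver and 0.45 ± 0.20 from bone marrow (adjusted p = 0.37 and 0.078). The bone marrow difference was called with each array centred on its median (0.54, adjusted p = 0.037), with only the arrays of the 2 groups in the fit (0.45, adjusted p = 0.049) and without bone marrow monocyte replicate 4 (0.60, adjusted p = 0.025). Chpt1, which forms phosphatidylcholine, the main lipid of surfactant, rose 4.22-fold, 5.79-fold and 1.94-fold from yolk sac, fetal liver and bone marrow. Awat1, a member of the Dgat2 family known for joining fatty acids to long-chain alcohols as wax esters, rose at least 9.29-fold, 8.13-fold and 9.26-fold in that order and is taken up again below. Agpat2, which makes phosphatidic acid on the way to triacylglycerol, fell in each, with log2 differences of -1.13 ± 0.17, -0.53 ± 0.17 and -0.61 ± 0.17. The FL-derived call was lost without FL-derived replicate 1 (adjusted p = 0.069). Of the 12 measured storage genes 10 rose and 2 fell from yolk sac, and 9 rose and 2 fell from each kind of monocyte.

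The cholesterol exporters took different courses. Abcg1, which passes cholesterol to high-density lipoprotein and is known for its role in the lung, had log2 levels of 10.59, 10.57, 10.53 and 10.66 in YS-derived macrophages, against 6.49, 5.73, 5.93 and 6.38 in yolk sac macrophages. In FL-derived macrophages it had 10.64, 10.80, 10.63 and 10.44, against log2 levels of 7.42, 7.45, 7.45 and 7.08 in fetal liver monocytes. In BM-derived macrophages it had 10.88, 10.90, 10.82 and 10.48, against log2 levels of 6.92, 7.05, 7.21 and 6.81 in bone marrow monocytes. Derived samples of all origins lay within a narrow range well above their precursors, and Abcg1 rose 21.9-fold, 9.69-fold and 13.7-fold from yolk sac, fetal liver and bone marrow (adjusted p = 6.4e-22, 5.5e-18 and 9.9e-20). Abca1, which loads cholesterol onto lipid-poor apolipoprotein, had log2 levels of 7.03, 7.26, 7.48 and 7.64 in YS-derived macrophages, against 9.01, 8.96, 9.04 and 9.02 in yolk sac macrophages. FL-derived macrophages had log2 levels of 7.35, 7.52, 7.06 and 7.48, against 5.88, 5.32, 5.64 and 5.41 in fetal liver monocytes. BM-derived macrophages had log2 levels of 6.75, 6.86, 7.99 and 7.27, against 5.08, 4.91, 4.79 and 5.01 in bone marrow monocytes. The derived groups overlapped one another, whereas yolk sac macrophages lay above all of them and both kinds of monocyte below. Abca1 therefore fell 3.15-fold from yolk sac (adjusted p = 9.9e-09) and rose 3.45-fold from fetal liver and 4.83-fold from bone marrow (adjusted p = 2.3e-09 and 1.0e-11). It was the only measured member called in opposite directions among the 3 comparisons, and the changes themselves differed by -3.44 ± 0.27 between yolk sac and fetal liver and by -3.92 ± 0.27 between yolk sac and bone marrow on the log2 scale (adjusted p = 4.2e-12 and 1.4e-13). In this comparison the yolk sac group is also the one with the erythroid, endoderm and endothelial signal given above, and their part in the fall of Abca1 was not tested.

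Ch25h, which hydroxylates cholesterol to the signalling oxysterol 25-hydroxycholesterol, was among the genes with the widest rise. Its log2 levels were 9.74, 9.97, 9.63 and 9.82 in YS-derived macrophages, against 4.497, 4.95, 3.61 and 3.97 in yolk sac macrophages. They were 9.56, 10.05, 9.52 and 10.01 in FL-derived macrophages, against 3.59, 2.96, 3.02 and 3.88 in fetal liver monocytes. They were 9.96, 9.67, 9.70 and 9.59 in BM-derived macrophages, against 3.56, 3.45, 4.05 and 4.18 in bone marrow monocytes. All precursor samples but 1 lay under the table median, and Ch25h rose at least 35.9-fold, 35.8-fold and 34.4-fold from yolk sac, fetal liver and bone marrow (adjusted p = 9.1e-20, 2.4e-21 and 2.2e-20). Pltp, the secreted protein that transfers phospholipid between lipoproteins, rose 6.18-fold from yolk sac, 18.6-fold from fetal liver and 6.93-fold from bone marrow. Abcg2, an exporter of drugs and porphyrins, rose 4.04-fold from bone marrow (adjusted p = 1.4e-10), while its log2 difference was -0.13 ± 0.19 from yolk sac and 0.31 ± 0.19 from fetal liver; the change from yolk sac differed from that of bone marrow by -2.15 ± 0.27 and that of fetal liver by -1.71 ± 0.27 (adjusted p = 1.1e-07 and 4.3e-05). Without fetal liver monocyte replicate 2 the fetal liver difference was 0.50 and passed the test (adjusted p = 0.041). Abca3, the surfactant lipid transporter of type 2 epithelial cells, had log2 differences of 0.17, -0.20 and 0.04 from yolk sac, fetal liver and bone marrow, none of them called.

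β-oxidation genes changed in one direction only among those called. Of the 10 members 7 rose from yolk sac, 8 from fetal liver and 7 from bone marrow, and none fell; the median log2 differences were 0.62, 0.99 and 0.82. The carnitine shuttle into mitochondria held the largest difference for each origin. Cpt1a, the outer-membrane carnitine acyltransferase that sets the pace of the pathway, had log2 levels of 8.64, 8.49, 8.30 and 8.88 in YS-derived macrophages, against 6.26, 6.21, 6.61 and 7.29 in yolk sac macrophages. FL-derived macrophages had log2 levels of 8.63, 8.52, 8.63 and 8.33, against 6.72, 6.39, 6.12 and 6.84 in fetal liver monocytes. BM-derived macrophages had log2 levels of 8.88, 9.16, 8.80 and 8.44, against 6.87, 7.72, 7.93 and 7.56 in bone marrow monocytes. No derived group overlapped its precursor, and Cpt1a rose 3.97-fold, 4.03-fold and 2.46-fold from yolk sac, fetal liver and bone marrow (adjusted p = 9.9e-09, 9.7e-09 and 2.8e-05). Cpt2, which reverses the reaction on the inner membrane, rose 1.83-fold, 1.95-fold and 3.05-fold. The carrier between them, Slc25a20, rose 1.91-fold from yolk sac and 2.22-fold from fetal liver (adjusted p = 0.0026 and 3.4e-04), and had a log2 difference of 0.53 ± 0.25 from bone marrow (adjusted p = 0.099), which passed the test without bone marrow monocyte replicate 1 (0.70, adjusted p = 0.042).

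The chain-shortening enzymes came next. Hadha and Hadhb, the subunits of the trifunctional protein whose shared promoter stretch is shown above, rose from every precursor. Hadha had log2 levels of 9.30, 9.46, 9.44 and 9.62 in YS-derived macrophages against 8.77, 8.83, 8.81 and 9.01 in yolk sac macrophages, a rise of 1.52-fold. It rose 2.11-fold from fetal liver and 2.52-fold from bone marrow (adjusted p = 0.0011, 2.3e-07 and 3.6e-09 for the 3 origins). Hadhb had log2 levels of 9.48, 9.51, 9.52 and 9.40 in YS-derived macrophages against 8.22, 8.52, 8.60 and 8.46 in yolk sac macrophages, a rise of 2.04-fold, and rose 1.67-fold from fetal liver and 2.24-fold from bone marrow (adjusted p = 3.5e-10, 3.5e-07 and 2.6e-11). Hadhb was the only measured member with more than 1 probe set; the group means of the other ran from 8.33 to 9.48 where those used ran from 8.41 to 9.57, and whether either matches a further copy of the sequence was not examined. The acyl-CoA dehydrogenases, take the first oxidation step. Acadm, for medium chains, rose 1.55-fold, 2.01-fold and 1.70-fold from yolk sac, fetal liver and bone marrow. Acadvl, for very long chains, rose 2.02-fold from fetal liver and 1.82-fold from bone marrow, and had a log2 difference of 0.29 ± 0.14 from yolk sac (adjusted p = 0.095). Acadl, for long chains, was called from yolk sac alone, at 0.36 ± 0.13, and that call was lost without yolk sac macrophage replicate 3 or YS-derived replicate 3 (adjusted p = 0.055 and 0.057). Hadh, the dehydrogenase for shorter chains, rose with a log2 difference of 0.53 ± 0.19 from fetal liver, lost without fetal liver monocyte replicate 4 (0.31, adjusted p = 0.19) or FL-derived replicate 2 or 4 (adjusted p = 0.079 and 0.061). In the yolk sac comparison it had 0.38 ± 0.19 (adjusted p = 0.11), called without yolk sac macrophage replicate 3 (0.52, adjusted p = 0.032). Etfdh, which passes the electrons on to the respiratory chain, rose 1.41-fold from bone marrow, a call lost without bone marrow monocyte replicate 1 or BM-derived replicate 2 (adjusted p = 0.070 and 0.075).

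**Figure D3:**
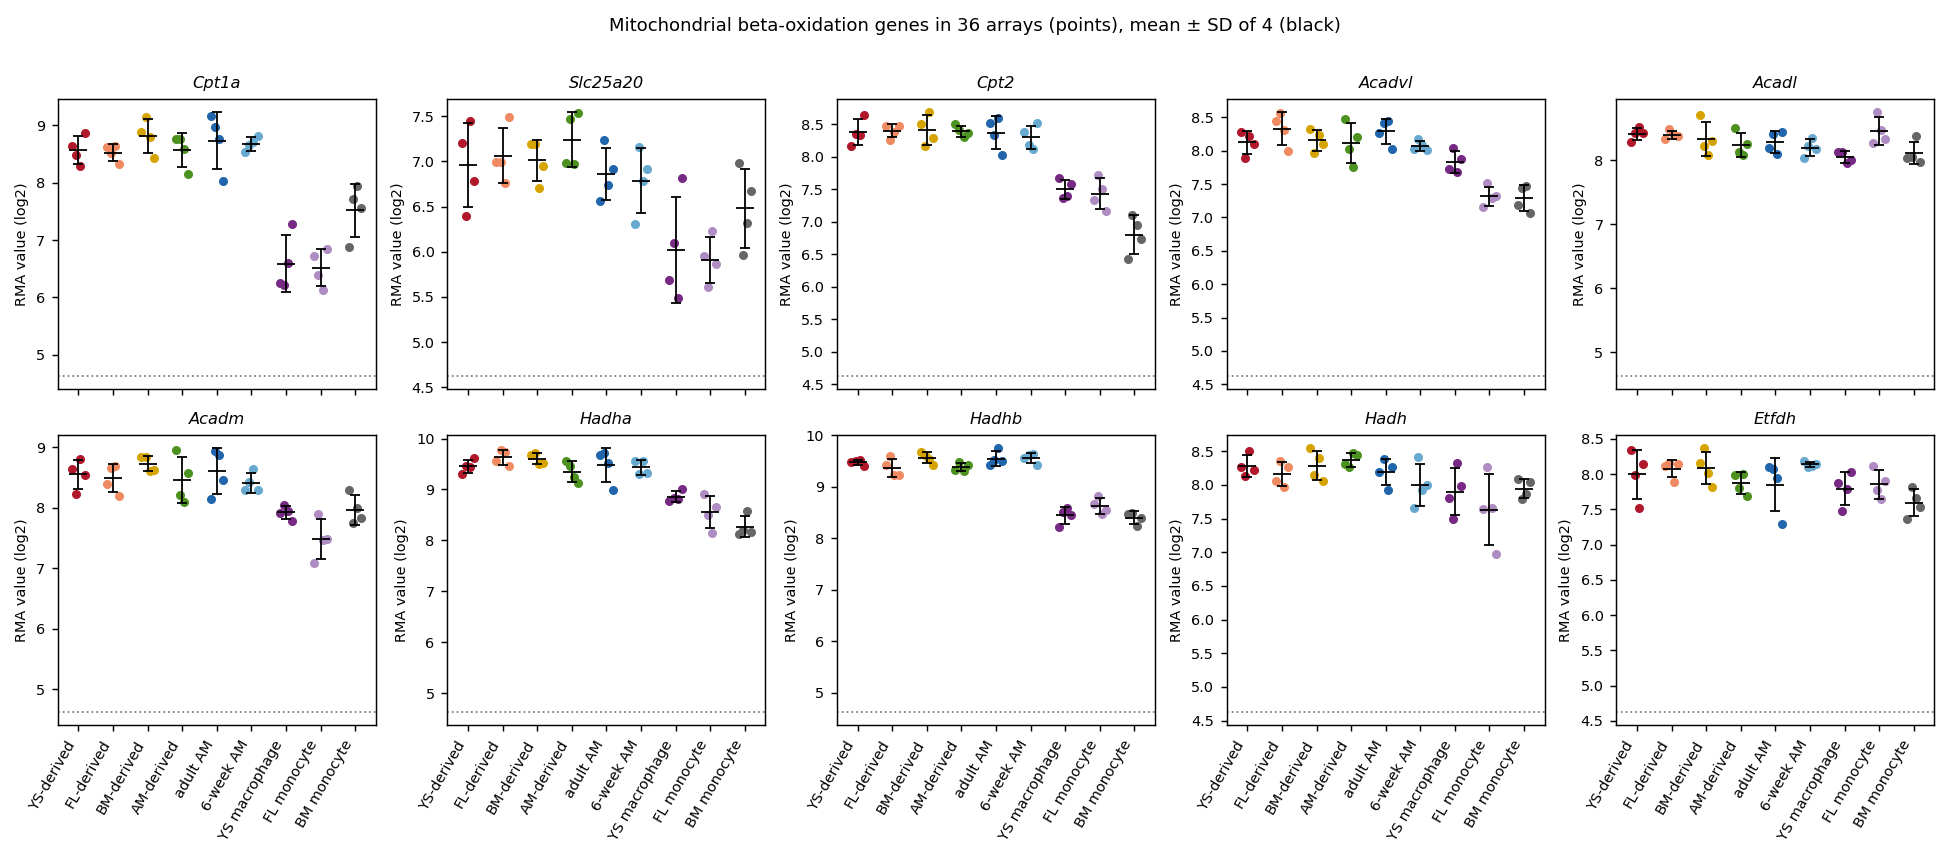
Log2 RMA values of the 10 mitochondrial β-oxidation members in the 9 groups; each point is 1 of 4 arrays and black bars give mean ± SD. For Cpt1a, Cpt2, Hadha and Hadhb the 6 groups of alveolar macrophages overlap one another and their means lie above those of the 3 precursor groups.

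The precursors differed among themselves before transfer. Between yolk sac macrophages and bone marrow monocytes 10 members were higher and 7 lower (24.1% and 18.1% of all genes, 42.2% in all), between yolk sac macrophages and fetal liver monocytes 10 were higher and 8 lower (18.6% and 14.5% of all genes, 33.1% in all), and between fetal liver and bone marrow monocytes 7 were higher and 4 lower (10.6% and 8.97% of all genes, 19.5% in all). Yolk sac macrophages exceeded both kinds of monocyte in Cd36, at least 27.3-fold over either, in Abca1, 10.9-fold over fetal liver and 16.7-fold over bone marrow monocytes, and in Lpl, 5.53-fold and 3.66-fold. They were lower in Abcg1, 2.32-fold and 1.82-fold, and in Dgat1, 3.36-fold and 1.62-fold, in the same order. Fetal liver monocytes had 3.40-fold more Abcg2 and 2.07-fold more Dgat1 than bone marrow monocytes, and 3.16-fold less Chpt1, 2.35-fold less Pltp and 2.01-fold less Cpt1a. The erythroid, endoderm, endothelial, granule and lymphocyte markers given above move with these comparisons, and their part was not tested. The change over transfer differed by origin for 13 members between yolk sac and bone marrow, 5 higher and 8 lower (12.4% and 18.2% of all genes, 30.6% in all). It differed for 10 between yolk sac and fetal liver, 4 higher and 6 lower (9.48% and 13.5%, 22.9% in all), and for 6 between fetal liver and bone marrow, 3 higher and 3 lower (4.26% and 5.68%, 9.94% in all). The counts between yolk sac macrophages and bone marrow monocytes lie near the shares of all genes. So do the 13 and 10 members whose change differed between yolk sac and the other origins. These counts are not particular to the members.

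After transfer the members of the 3 origins were much closer together. None of the 34 was called between YS- and FL-derived (0.270% of all genes, 0.163% higher and 0.106% lower), YS- and BM-derived (0.833%, 0.392% higher and 0.441% lower) or FL- and BM-derived macrophages (0.417%, 0.172% higher and 0.245% lower) in limma. At such shares most sets of 34 genes would have no call, so this lack of calls is not particular to the members. At an unadjusted p under 0.05 there were 2, 4 and 3 members in these comparisons, against 6.28%, 7.96% and 5.85% of all genes. The 102 differences ran from -0.78 to 0.42 on the log2 scale, and their 95% intervals from -1.18 to 0.94, which bounds how alike single genes can be called with 4 samples a group. The widest was Dgat2 at 7.03, 7.07, 6.86 and 7.23 in FL-derived macrophages, against log2 levels of 8.30, 7.42, 8.07 and 7.52 in BM-derived macrophages, with no overlap. It was called without BM-derived replicate 2 (-0.92, adjusted p = 0.030) or replicate 4 (-0.88, adjusted p = 0.0498). Agpat2 was called lower in YS-derived than in BM-derived and FL-derived macrophages when YS-derived replicate 2 was left out (-0.82 in both, adjusted p = 0.010 and 0.028). Between adult and 6-week AM no member was called (0.0163% of all genes, all of them higher), with 3 members at an unadjusted p under 0.05 (4.08% of all genes) and 95% intervals that ran from -1.01 to 0.72. Here too the share of all genes is too small for the lack of calls to be particular to the members.

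Compared with native 6-week AM, most members of the transferred cells did not pass the test, and a small group was higher. Of the 34 members 7 were higher and 2 lower in YS-derived macrophages, where 1.02% of all genes were higher and 0.702% lower (1.72% in all). In FL-derived macrophages 5 were higher and none lower (0.604% and 0.441% of all genes, 1.05% in all). In BM-derived macrophages 5 were higher and none lower (0.825% and 0.482%, 1.31% in all), and in AM-derived macrophages 4 were higher and none lower (0.760% and 0.310%, 1.07% in all). These 4 comparisons share the same 6-week AM samples, and so their results are not independent of one another. Markers also moved with them: Siglecf, an alveolar macrophage marker, had log2 differences from 6-week AM of -0.96 in YS-derived and -0.80 in BM-derived macrophages (adjusted p = 0.0018 and 0.018), and Marco, another, had 0.76 in AM-derived macrophages (adjusted p = 0.025). The epithelial marker Epcam had -2.02 in YS-derived and -1.43 in FL-derived macrophages (adjusted p = 4.6e-04 and 0.037), and the monocyte marker S100a8 had 1.70 in FL-derived macrophages (adjusted p = 0.028). These are single genes of lists with 7 alveolar macrophage, 8 epithelial and 4 monocyte markers measured. The epithelial list summed to 298 to 408 (linear values) in 6-week AM, 220 to 301 in YS-derived and 241 to 300 in FL-derived macrophages. Epcam itself was higher in the 6 groups of alveolar macrophages than in the 3 precursor groups (log2 difference 2.04), where Krt18 of its list was lower (-0.28). The part of these markers in the members' differences was not tested. Awat1, Ch25h and Chpt1 were higher in all 4 transferred groups. Slc27a1 and Abcg2 were called in the 3 precursor-derived groups, and Abca1 in AM-derived and YS-derived macrophages. None of the 10 β-oxidation members was called in any of the 4, which at 1.05% to 1.72% of all genes is what most sets of 10 would give. Their 40 differences ran from -0.26 to 0.45 on the log2 scale, with 95% intervals from -0.63 to 0.96.

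**Figure D4:**
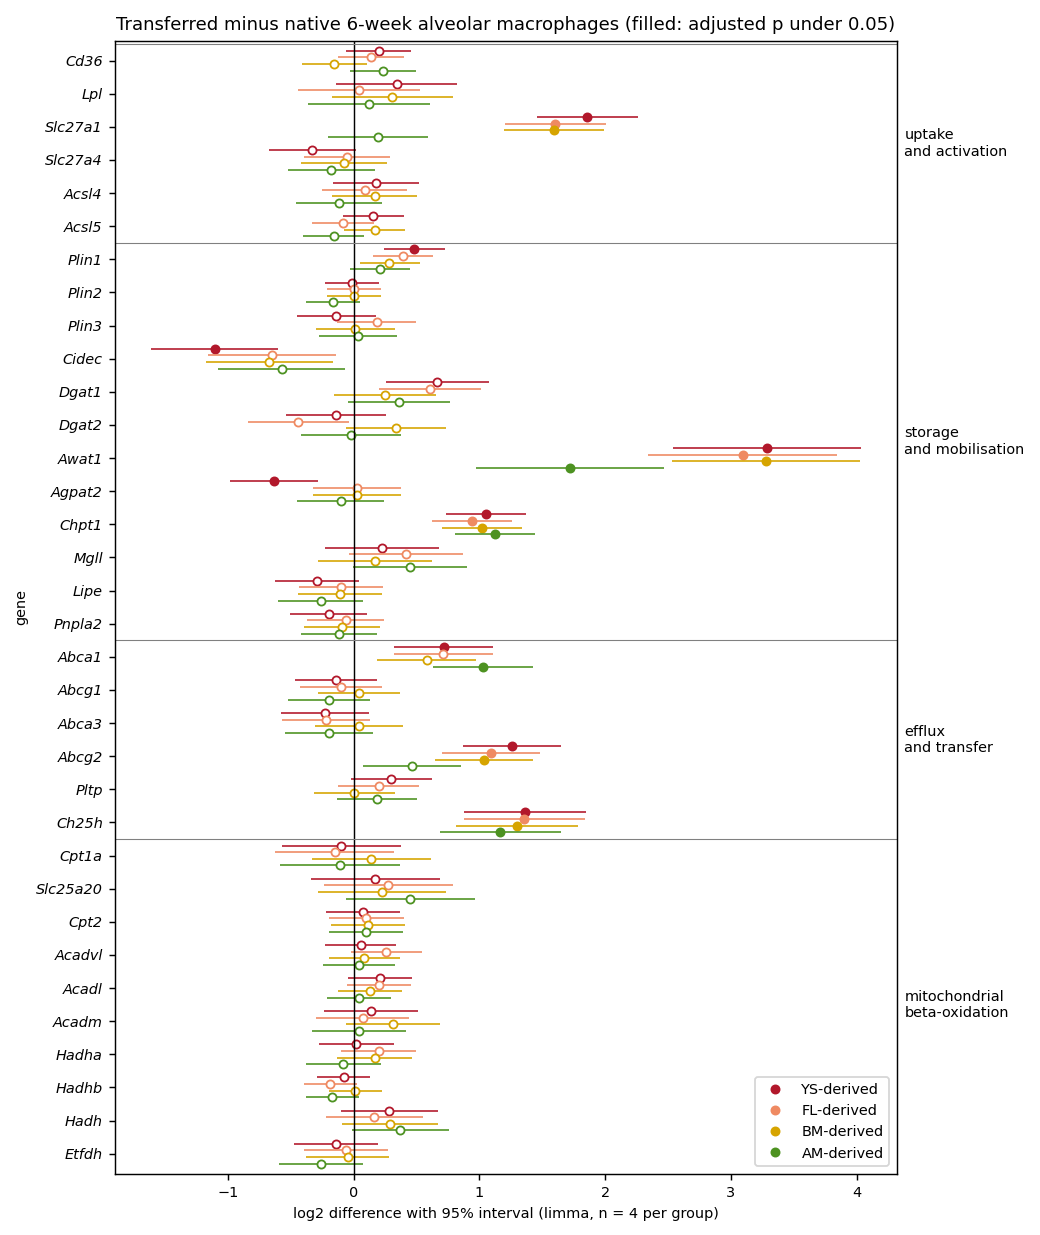
Log2 difference with its 95% interval (limma, 4 samples per group) of each member between the 4 transferred groups and native 6-week AM, grouped by role; filled points passed an adjusted p under 0.05. Awat1, Ch25h and Chpt1 lie right of 0 in all 4 groups, Slc27a1 at 1.59 to 1.86 in the precursor-derived groups and 0.19 in AM-derived macrophages, and all β-oxidation points are open.

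Awat1 showed the widest of these differences. Its log2 levels were 7.90, 8.37, 7.24 and 7.84 in YS-derived, 6.82, 7.26, 7.77 and 8.73 in FL-derived, 8.11, 6.16, 8.71 and 8.35 in BM-derived and 6.10, 5.98, 6.73 and 6.28 in AM-derived macrophages, against 4.54, 4.57, 5.12 and 3.98 in 6-week AM. Adult AM had log2 levels of 4.41, 4.08, 4.45 and 4.23, and the precursors were as dim, between 3.82 and 4.85. Every transferred sample therefore stood above every native and precursor sample, and the native and precursor groups had means under the table median, which makes each fold a lower bound. Awat1 was higher than in 6-week AM at least 9.29-fold in YS-derived, 8.13-fold in FL-derived, 9.26-fold in BM-derived and 3.14-fold in AM-derived macrophages (adjusted p = 1.9e-07, 2.5e-06, 3.6e-07 and 0.0088). The last was lost without 6-week AM replicate 4 (adjusted p = 0.058). AM-derived macrophages also exceeded adult AM, the cells they descend from, at least 3.14-fold (adjusted p = 0.0026).

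Ch25h and Chpt1 shared that pattern at higher levels of signal in native cells. Ch25h had log2 levels of 9.77, 9.57, 9.85 and 9.19 in AM-derived macrophages, against 8.43, 8.31, 8.28 and 8.22 in adult AM and 8.46, 8.90, 7.77 and 8.58 in 6-week AM; the other transferred groups, given above, lay between 9.52 and 10.05. Transferred and native samples did not overlap. The excess over 6-week AM was 2.57-fold in YS-derived, 2.56-fold in FL-derived, 2.46-fold in BM-derived and 2.25-fold in AM-derived macrophages (adjusted p = 3.7e-04, 7.8e-04, 0.0012 and 0.0055), the last lost without 6-week AM replicate 3 (adjusted p = 0.051). Over adult AM it was 2.43-fold in AM-derived macrophages (adjusted p = 0.0026). Chpt1 had log2 levels of 8.69, 8.42, 8.30 and 8.20 in YS-derived, 8.49, 8.39, 7.996 and 8.28 in FL-derived, 8.34, 8.07, 8.51 and 8.56 in BM-derived and 8.21, 8.66, 8.48 and 8.56 in AM-derived macrophages, against 7.51, 7.64, 7.76 and 7.93 in adult AM and 7.20, 7.54, 7.38 and 7.29 in 6-week AM. Again no transferred sample was as low as a native one, with an excess over 6-week AM of 2.08-fold, 1.92-fold, 2.03-fold and 2.18-fold in YS-, FL-, BM- and AM-derived macrophages. Over adult AM it was 1.70-fold in AM-derived macrophages (adjusted p = 0.0072), a call lost when only the arrays of these 2 groups entered the fit (adjusted p = 0.061).

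Slc27a1 separated the cells that came from precursors from all other alveolar macrophages. It had log2 levels of 7.41, 7.44, 7.68 and 8.14 in YS-derived, 7.24, 7.06, 7.30 and 8.05 in FL-derived and 7.12, 7.19, 7.33 and 7.96 in BM-derived macrophages. AM-derived macrophages had log2 levels of 6.38, 5.74, 6.16 and 5.74, against 5.77, 5.81, 5.73 and 5.93 in 6-week AM, and adult AM had 6.29, 5.71, 6.21 and 6.29. The AM-derived samples fell within the native range or just above it, and the precursor-derived samples lay above every native and AM-derived sample. The excess over 6-week AM was 3.62-fold, 3.04-fold and 3.02-fold in YS-, FL- and BM-derived macrophages (adjusted p = 7.6e-08, 4.6e-06 and 2.4e-06). Set directly against AM-derived macrophages, it was 3.17-fold, 2.66-fold and 2.64-fold (adjusted p = 1.6e-06, 4.0e-05 and 7.7e-05). Of all genes 0.294% were higher and 0.294% lower in YS-derived over AM-derived macrophages (0.588% in all), 0.114% and 0.221% in FL-derived (0.335%), and 0.155% and 0.270% in BM-derived (0.425%). Slc27a1 was the only member called in FL-derived against AM-derived macrophages, and that call was lost when only these 2 groups entered the fit (adjusted p = 0.052). Abcg2 had log2 levels of 7.03, 7.03, 7.40 and 7.03 in YS-derived, 6.58, 6.97, 6.97 and 7.32 in FL-derived, 7.04, 6.47, 7.10 and 7.00 in BM-derived and 6.25, 6.37, 6.28 and 6.43 in AM-derived macrophages, against 5.79, 6.19, 5.54 and 5.95 in 6-week AM; adult AM had 5.33, 5.67, 6.03 and 5.57. The AM-derived samples lay between the other transferred groups and the native ones without overlap with either, at a log2 difference of 0.47 from 6-week AM that was not called. The excess over 6-week AM was 2.39-fold, 2.13-fold and 2.05-fold in YS-, FL- and BM-derived macrophages (adjusted p = 5.5e-05, 8.2e-04 and 0.0015).

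Against AM-derived macrophages, 3 members were called in YS-derived and 2 in BM-derived cells, but only Slc27a1 held in each of them when single samples were left out. Awat1 was higher with a log2 difference of 1.57 ± 0.37 in YS-derived and 1.56 ± 0.37 in BM-derived over AM-derived macrophages (adjusted p = 0.033 and 0.043). The YS-derived call was lost without YS-derived replicate 1, 2 or 4 or AM-derived replicate 1, 2 or 4 (adjusted p = 0.080 to 0.17), and the BM-derived call without BM-derived replicate 1, 3 or 4 or any AM-derived replicate (adjusted p = 0.053 to 0.27). Abcg2 was higher in YS-derived over AM-derived macrophages by 0.79 ± 0.19 (adjusted p = 0.043), lost without any 1 of the 8 samples (adjusted p = 0.076 to 0.18). Abca1 had log2 levels of 7.76, 7.61, 7.58 and 7.71 in AM-derived macrophages, against 6.90, 7.13, 7.09 and 6.31 in adult AM and 6.50, 6.75, 6.37 and 6.94 in 6-week AM. The AM-derived samples lay above all native ones, 2.04-fold over 6-week AM (adjusted p = 0.0023) and 1.75-fold over adult AM (adjusted p = 0.032, 1 of 4 members called there, all higher, against 0.400% of all genes higher and 0.302% lower, 0.702% in all). The call over adult AM was lost without adult AM replicate 1 or 4 or any AM-derived replicate (adjusted p = 0.058 to 0.14). In YS-derived over 6-week AM, Abca1 was 1.64-fold higher (adjusted p = 0.047), lost without YS-derived replicate 2, 3 or 4 or 6-week AM replicate 1, 2 or 3 (adjusted p = 0.068 to 0.20).

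Members called lower than in 6-week AM were Cidec and Agpat2, both in YS-derived macrophages. Cidec, at the log2 levels given above, was 2.16-fold lower than in 6-week AM, which had 10.89, 10.70, 10.59 and 10.75 (adjusted p = 0.0079); the YS-derived and native samples did not overlap. Without YS-derived replicate 4 the adjusted p was 0.050. Cidec had log2 differences of -0.65, -0.67 and -0.57 in FL-, BM- and AM-derived macrophages against 6-week AM, none of them called, although the highest sample of the 4 transferred groups (10.501) lay below the lowest native sample (10.59). AM-derived macrophages were called lower than adult AM in Cidec when only these 2 groups entered the fit (-0.74, adjusted p = 0.035), and YS-derived cells were not called against FL- or BM-derived cells in this gene. Agpat2 was 1.55-fold lower (adjusted p = 0.047) with overlapping groups, and Plin1 1.40-fold higher (adjusted p = 0.017). Agpat2 was lost without YS-derived replicate 1 or 4 or 6-week AM replicate 2, 3 or 4 (adjusted p = 0.098 to 0.30), and Plin1 without YS-derived replicate 1 or 4 or 6-week AM replicate 2 (adjusted p = 0.090 to 0.12). In all, 5 members were called in this comparison in place of 9 without YS-derived replicate 4.

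**Figure D5:**
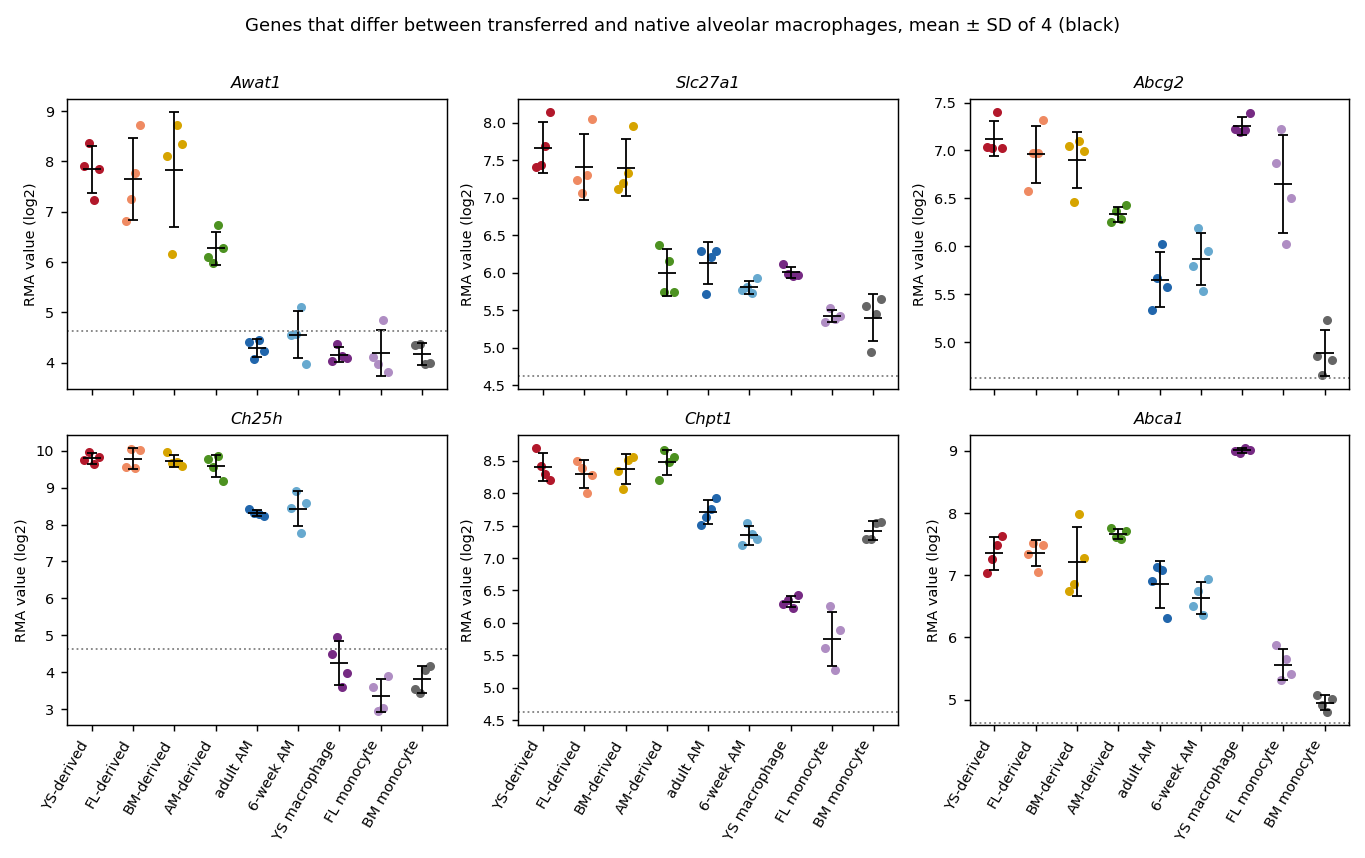
Log2 RMA values of 6 members that differ between transferred and native alveolar macrophages, in all 9 groups; each point is 1 of 4 arrays, black bars give mean ± SD and the dotted line is the table median of 4.623. Awat1 is above 5.9 in the 4 transferred groups alone, and Slc27a1 is above 7.0 in the 3 precursor-derived groups alone.

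Further genes of the same pathways were read from lists of relatives. Where a gene is given for some origins only, it was not among the 4 called genes of its list with the lowest adjusted p in the others. Such a gap does not mean that the gene did not change there. Peroxisomal β-oxidation, which shortens very long chains, rose without a fall in 7 of 12 tested genes from yolk sac and 9 of 12 from each kind of monocyte. Acaa1b, its thiolase, had log2 differences of 2.53, 2.64 and 2.62 from yolk sac, fetal liver and bone marrow, and Eci2, an isomerase for unsaturated chains, 1.25, 1.51 and 1.03. Abcd2, a transporter of very long chains into peroxisomes, had 3.68 from yolk sac and 1.37 from fetal liver. Other storage and lipolysis genes rose in 9 of 16 from each origin, while 4 fell from yolk sac. They included Lipa, the lysosomal acid lipase, at 2.36, 2.76 and 2.21, Nceh1, a cholesteryl ester hydrolase, at 3.61, 2.58 and 2.80, and Lpin1, a phosphatidate phosphatase, at 3.10, 3.49 and 2.48, as log2 differences. Abhd5, the activator of Pnpla2, rose with 2.97 from yolk sac and 1.83 from fetal liver. Other mitochondrial β-oxidation genes were mixed, with 5, 3 and 5 of 14 higher and 2, 1 and 2 lower from yolk sac, fetal liver and bone marrow. The short-chain dehydrogenase Acads had log2 differences of 0.63 from fetal liver and 1.04 from bone marrow. Among other sterol genes 5, 4 and 5 of 11 rose and 1, 1 and 4 fell. Of all genes 19.6%, 20.4% and 20.3% rose and 23.2%, 18.0% and 16.1% fell in these comparisons, and the 3 of 14 mitochondrial genes that rose from fetal liver and the 4 of 16 storage genes that fell from yolk sac lie near those shares. Npc1, which exports cholesterol from lysosomes, rose with 2.31, 2.32 and 1.90, and Cyp27a1, which makes 27-hydroxycholesterol, fell with -2.05 from yolk sac and -2.04 from bone marrow.

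Of the 9 nuclear receptors and coactivators tested, 6 rose from yolk sac, 4 from fetal liver and 6 from bone marrow, and Rxrb fell from bone marrow with a log2 difference of -0.46. Ppara and its coactivator Ppargc1a, known as regulators of β-oxidation, had mean log2 levels of 3.98 and 3.02 over all arrays, too dim to be tested. Pparg had mean log2 levels of 10.03 ± 0.13 (SD, n = 4) in YS-derived, 10.34 ± 0.11 in FL-derived and 10.23 ± 0.21 in BM-derived macrophages, against 6.61 ± 0.13 in yolk sac macrophages, 7.85 ± 0.21 in fetal liver monocytes and 5.50 ± 0.38 in bone marrow monocytes. It rose with log2 differences of 3.42, 2.49 and 4.73 (adjusted p = 5.7e-20, 5.1e-16 and 9.6e-24). Nr1h3 rose with 2.27, 2.51 and 2.85, Rxra with 0.73, 2.55 and 1.88, and the coactivator Ppargc1b with 0.61, 0.98 and 1.23. Over the 9 group means, 17 members had a Pearson r above 0.8 with Pparg, as did 11.2% of all genes tested, and the median r was 0.80 for the members and -0.09 for all genes. The most alike were Cpt2 (r = 0.976), Hadhb (0.969), Cidec (0.964), Plin3 (0.955) and Abcg1 (0.952). Lipe (-0.826) and Agpat2 (-0.710) ran opposite, and Abca1, Abcg2 and Abca3 had r of 0.292, 0.281 and 0.036. These r describe 9 points in which alveolar macrophages stand apart from precursors, which is what most of these genes share. The members were also chosen with earlier results of these data known, so their median r is not a test against all genes. The members with a DR1 match were Plin2 (r = 0.916), Cd36 (0.760) and Slc25a20 (0.758), and the starts used for Cd36 and Plin2 lie inside the annotated genes. Of the most alike members, Cpt2, Hadhb, Cidec and Plin3 had no DR1 match in their windows, and Abcg1 had no window.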

How the data were processed

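The deposited table holds log2 values of 35556 probe sets on 36 Affymetrix Mouse Gene 1.0 ST arrays, which the authors had normalised with RMA (per the submitters' processing notes; version not given in the sources used here); RMA forces the arrays to a common distribution, so a shift shared by most genes is removed and folds of dim genes are compressed. Per the labels and the series' design text, cells were sorted and their RNA amplified before hybridisation. No read depth exists for arrays; 4 arrays a group limit the precision.

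Of the probe sets 21789 were annotated with 1 symbol, 1621 with several and 12146 with none; 21698 symbols were updated by Entrez identifier to RefSeq (GRCm38.p6) and 91 kept. Genes above the table median (4.623) in at least 4 arrays were tested, 12244 in all. limma 3.58.1 (lmFit and eBayes, R 4.3.3) estimated a mean for each of the 9 groups from the 36 arrays together, with Benjamini-Hochberg adjustment within each contrast over all genes tested. Values are means of deposited log2 values, and differences are given ± SE. The limma p-values set each difference against the spread between labelled replicates. That spread was estimated over the 9 groups together and drawn by eBayes towards that of other genes. The script was tested on simulated data. Deviations of same-numbered replicates from their group means correlated at r from -0.377 to 0.419, and 0 of 36 pairs of groups had every r over 0.1. The numbers were therefore not taken as pairs, and whether same-numbered samples shared a weaker effect was not tested. Columns of samples outside the series numbered 0.

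The members, the lists of related genes and the markers were chosen with earlier results of these data known. All members are named; of other lists up to 4 genes with the lowest adjusted p are named per comparison, and any nuclear receptor of its list. Alternatives were no filter and a stricter filter, the mean over probe sets, a fit on the compared groups alone, renewed quantile normalisation, median centring, a trended prior, array weights, a replicate block and leaving out each sample.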

Additional observations from a re-analysis of the deposited data

Results flagged for a closer look

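In groups of 4 samples, 16 of 306 sets of values (5.23%) had a lowest or highest sample whose gap to the next exceeded Dixon's 95% limit, about the 1 in 20 that chance gives. Among adult AM the lowest log2 values were 10.20 for Lpl in replicate 4, 5.71 for Slc27a1 in replicate 2, 8.45 for Mgll in replicate 4. Elsewhere the low samples were Cd36 at 10.45 in FL-derived replicate 4, Slc27a4 at 5.32 in BM-derived replicate 4, Plin1 at 4.68 in 6-week AM replicate 2, Agpat2 at 5.64 in AM-derived replicate 1. Further low samples were Pnpla2 at 7.31 in AM-derived replicate 4, Abcg1 at 7.08 in fetal liver monocyte replicate 4, Abca3 at 6.25 in bone marrow monocyte replicate 1, Abcg2 at 6.47 in BM-derived replicate 2. High samples were Plin2 at 11.10 in AM-derived replicate 1, Lipe at 5.73 in yolk sac macrophage replicate 4, Abcg2 at 7.40 in YS-derived replicate 3, Abcg2 at 7.39 in yolk sac macrophage replicate 4, Hadha at 8.58 in bone marrow monocyte replicate 3. Replicate 4 of adult AM was low for both Lpl and Mgll.

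The change over transfer differed between origins, by an interaction term with an adjusted p under 0.05 in limma, in 29 cases; values are differences between log2 changes. Yolk sac minus bone marrow gave the lower change in Cd36 (-4.68), Lpl (-1.84), Plin2 (-1.15), Abca1 (-3.92), Abcg2 (-2.15), Cpt2 (-0.74), Acadvl (-0.58), Hadha (-0.73). In the same comparison the higher change was in Dgat1 (1.12), Chpt1 (1.13), Lipe (0.61), Pnpla2 (0.62), Abcg1 (0.68). Yolk sac minus fetal liver gave the lower change in Cd36 (-5.95), Lpl (-2.17), Plin2 (-0.84), Abca1 (-3.44), Pltp (-1.59), Acadvl (-0.72). In the same comparison the higher change was in Acsl5 (0.59), Dgat1 (1.81), Dgat2 (1.17), Abcg1 (1.18). Fetal liver minus bone marrow gave the lower change in Dgat2 (-1.17), Abcg2 (-1.71), Cpt2 (-0.64). In the same comparison the higher change was in Cd36 (1.28), Chpt1 (1.58), Pltp (1.43). Calls that some settings lost were Lipe, Acadvl, Pnpla2 and Abcg1 between yolk sac and bone marrow (highest adjusted p = 0.13, 0.093, 0.081 and 0.063) and Cpt2 between fetal liver and bone marrow (0.12).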

How the results depend on the processing

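No call of a member changed direction. Of 220 calls of members 182 were kept under every alternative run and 38 were lost under at least one. A further 39 differences of members that were not called passed the test under at least one. Calls of related genes and markers, and the r with Pparg, were not followed under the alternatives. Counts of called members over transfer ran from 27 to 30 for yolk sac (28 in the report), 26 to 27 for fetal liver (27) and 26 to 28 for bone marrow (27), and with single samples left out from 26 to 28, 25 to 27 and 25 to 28. Counts near 0 or near the limit moved more. For BM-derived against AM-derived macrophages 1 member in place of 2 was called with no filter, with only these groups in the fit and after renewed quantile normalisation (1 to 2 with single samples left out). For FL-derived against AM-derived it was 0 in place of 1 with only these groups in the fit. For YS-derived against BM-derived it was 1 in place of 0 with arrays centred on their medians (Agpat2; 0 to 1 with samples left out), and for FL-derived against BM-derived 1 in place of 0 with array weights (Dgat2; 0 to 1). With single samples left out the counts were 0 to 1 for YS-derived against FL-derived (0), 1 to 2 for YS-derived against AM-derived (3), and 5 to 9 for YS-derived against 6-week AM (9). The fit with the replicate number as a block gave 28, 27 and 27 members for yolk sac, fetal liver and bone marrow origins. It gave 7 for YS-derived against 6-week AM and 10 in place of 11 between fetal liver and bone marrow monocytes. This fit lost single calls near the limit, such as Abca1 in YS-derived macrophages, and the labels do not say that the numbers pair the samples. Plin1 left the test under the stricter filter. Where a call was lost the cause was not tested, except that fewer samples or genes entered by construction. Signal near background limits Awat1, Mgll, Cidec, Ch25h, Cd36 and Plin1, whose folds are lower bounds where stated.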

Other observations

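G0s2, a protein that inhibits Pnpla2, was the only gene of the 5 related lists called among the groups of alveolar macrophages. Its mean log2 level was 7.75 in FL-derived and 6.51 in BM-derived macrophages (log2 difference 1.24 ± 0.26, adjusted p = 0.015), and BM-derived macrophages were also lower than 6-week AM, at 7.50 (-0.995 ± 0.26, adjusted p = 0.047). Pnpla2 itself was not called in either comparison.

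Replicate 4 had the highest Slc27a1 value in all 3 precursor-derived groups, at log2 levels of 8.14 in YS-derived, 8.05 in FL-derived and 7.96 in BM-derived macrophages, while the other samples of these groups lay between 7.06 and 7.68. In bone marrow monocytes replicate 2 had the highest Lpl, at a log2 level of 7.89.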
